A study of Rattus norvegicus with 15 samples.

Results

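The comparison used 6 of the 15 arrays in the series, 3 at 18 h and 3 at 1 h of dibutyryl cAMP (dbcAMP). They were chosen by their labelled time, and the 18 h arrays were set against the 1 h arrays for every probe. Dissociated cells of lumbar dorsal root ganglia (DRG) of juvenile rats were cultured in Sato medium. On each array RNA of cultures given 1.5 mM dbcAMP carried Cy5 and RNA of untreated cultures carried Cy3, so each value is a ratio of treated over control. The other 9 arrays, at 3, 6 and 12 h, entered the fit. They are used below only to follow single genes through time and to compare the spread of arrays. The labels name the earliest time 1 h, whereas the treatment protocol lists 0 h in its place. Dishes were coated with poly-L-lysine or with myelin, and which coating an array had is unstated in these sources. The labels do not say whether separate cultures stand behind the 3 arrays of a time. All p-values therefore rest on array-to-array spread, and that spread may be technical only. No array carried the dyes the other way round. Any dye bias of a probe that was the same on all 6 arrays drops out of the difference between 18 h and 1 h, while a bias that differed between the times does not.

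Dibutyryl cAMP is a form of cyclic AMP that enters cells. In neurons cyclic AMP activates protein kinase A, which phosphorylates CREB, a transcription factor that binds the cAMP response element. Immediate early genes and feedback inhibitors such as RGS proteins and phosphodiesterases are known early targets, and genes of growth and secretion follow. Raised cyclic AMP is known to let DRG axons grow on myelin, an inhibitory substrate. DRG cultures hold Schwann cells, satellite glia, fibroblasts and macrophages beside sensory neurons, so every ratio is that of a mixture. A bulk ratio cannot tell fewer cells of a type from less RNA per cell. Since the deposited values are ratios, they show changes and not levels, and the presence of a cell type could not be checked from its markers.

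Of 4995 probes tested, 137 differed between 18 h and 1 h at an adjusted p under 0.05 (limma, Benjamini-Hochberg over all probes tested). The ratio was higher at 18 h for 59 probes (1.18 percent) and lower for 78 (1.56 percent). Among 4121 named genes 52 were higher (1.26 percent) and 64 lower (1.55 percent), and none had probes called in both directions. All 137 called probes had 18 h arrays that did not overlap the 1 h arrays, as did 24.9% of all probes tested. The probes called higher had a median log2 ratio of 0.96 at 18 h and of -0.01 at 1 h. Those called lower had a median of -1.13 at 18 h and of 0.02 at 1 h. The 1 h mean lay within 0.5 of 0 for 55 of the 59 and for 69 of the 78, so most called probes were close to balance at 1 h and away from it at 18 h.

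The 18 h arrays were also wider as a whole. The SD of log2 ratios over all probes was 0.65 to 0.70 on the 18 h arrays and 0.36 to 0.39 on the 1 h arrays. When all arrays were scaled to a common spread 12 probes were called (3 higher, 9 lower), and after quantile normalization 14 (3 higher, 11 lower). Leaving out 1 h replicate 1, 2 or 3 left 56, 49 or 42 called probes, and leaving out 18 h replicate 1 left 79. Atf3, Ankrd1, S100a8, S100a9, Tnc and Serinc5 (lower) and Slpi (higher) were called in every one of these settings. Of 73 called probes named by a fixed rule, 24 kept their call whichever 1 array was left out. For those described below that did not, the highest adjusted p with 1 array left out is given in their paragraph. The spread did not follow time alone. Replicates 1, 2 and 3 had SDs of 0.43, 0.38 and 0.64 at 6 h and of 0.63, 0.66 and 0.38 at 12 h. Missing ratios numbered 53, 28 and 89 at 6 h and 89, 105 and 56 at 12 h, more on the wider arrays. All 18 h arrays were wide and all 1 h arrays narrow, so time and array width cannot be told apart in this comparison. Whether the wider spread is biological or technical was not tested.

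**Figure D1:**
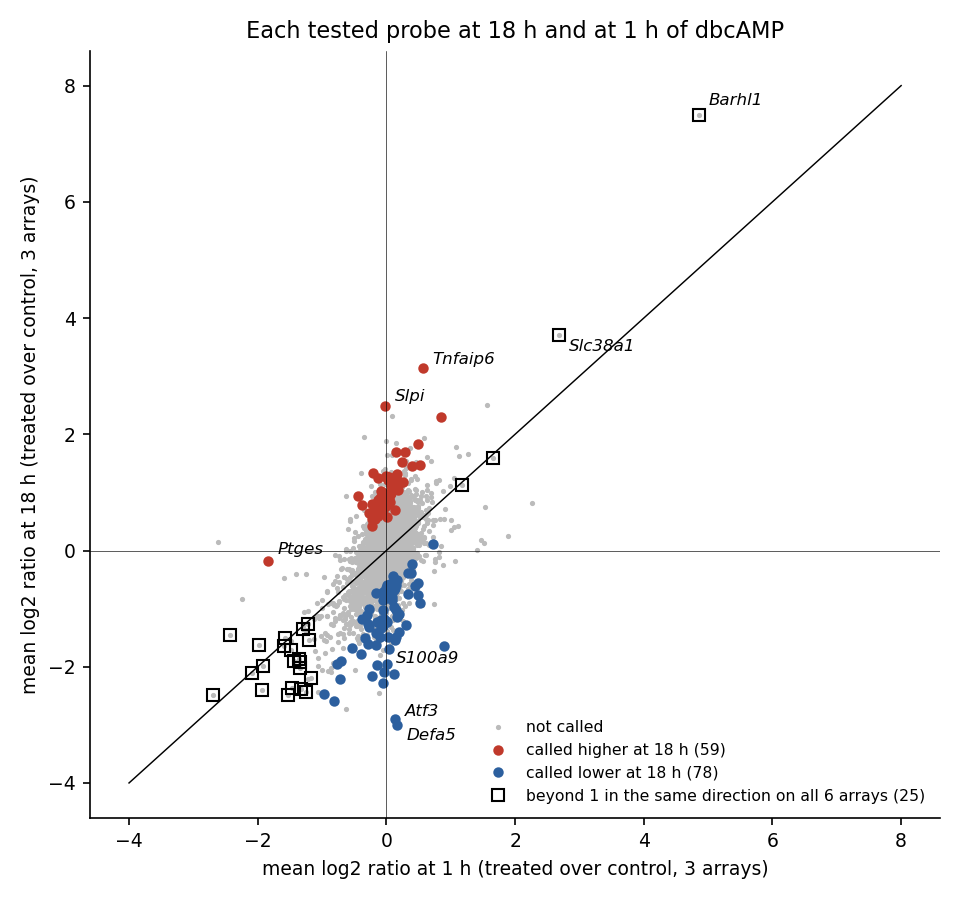
Mean log2 ratio at 18 h (vertical axis) against that at 1 h (horizontal axis) for each tested probe, 3 arrays each. Red points are the 59 probes called higher, blue points the 78 called lower, squares the 25 probes beyond 1 in the same direction on all 6 arrays, and the diagonal marks equal ratios. Most called probes stack above or below 0 of the 1 h axis, and most squares lie near the diagonal.

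Tnfaip6 and Slpi had the largest differences among the probes called higher. Tnfaip6, which encodes a secreted hyaluronan-binding protein, had log2 ratios of 3.07, 2.92 and 3.44 at 18 h, against 0.55, 0.62 and 0.52 at 1 h. The ratio at 18 h was 5.97 times that at 1 h (log2 difference 2.58 ± 0.19 SE, adjusted p = 7.26e-06, limma). All 6 arrays of Tnfaip6 were above 0, and those of 18 h were far above those of 1 h. Scaled to a common spread, its difference was 1.31 and no longer passed the threshold (adjusted p = 0.229). Slpi, a secreted inhibitor of leukocyte serine proteases, had log2 ratios of 2.39, 1.89 and 3.20 at 18 h and of 0.11, 0.01 and -0.18 at 1 h, a difference of 2.51 ± 0.30 SE (adjusted p = 0.000492). Slpi was near 0 at 1 h and spread more widely at 18 h than Tnfaip6.

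Among cytokines, Csf3, the granulocyte colony-stimulating factor, had log2 ratios of 1.96, 1.45 and 1.66 at 18 h, against 0.18, 0.01 and 0.26 at 1 h (difference 1.54, adjusted p = 0.000662). Il1rl1, the receptor of interleukin-33, had 1.54, 1.18 and 1.85 at 18 h and 0.37, 0.13 and 0.23 at 1 h on its called probe. Its second probe differed by 0.64 and did not pass (adjusted p = 0.128). Csf3 and the called Il1rl1 probe kept their calls whichever array was left out, and neither passed with arrays scaled to a common spread (adjusted p = 0.125 and 0.302). The list of interleukins, the TNF family, colony-stimulating factors and their receptors had 47 measured genes, with a median difference of 0.12. In it 3 were higher and 1 lower (6.38 and 2.13 percent, beside 1.26 and 1.55 percent of all named genes). Tnfaip6 counts in this list by its symbol alone, since it is induced by TNF and is no member of that family. The 1 lower member was Tnfrsf4, a receptor of activated T cells, with a difference of -0.88 (adjusted p = 0.0488). Its call was lost without any 1 of the 6 arrays (up to 0.184).

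The gp130 cytokines signal through a shared receptor subunit and act on injured sensory neurons. Beside 1.26 percent of all named genes, 1 of 13 measured genes was higher. It was Ctf1, cardiotrophin-1, with log2 ratios of 0.39, 1.02 and 0.96 at 18 h and of -0.30, -0.71 and -0.14 at 1 h (difference 1.17, adjusted p = 0.0136). Without 1 h replicate 2 its adjusted p was 0.0751, the highest of the 6 that leave out an array. Il6 had log2 ratios of -0.50, 3.25 and 2.83 at 18 h, against 0.14, 0.23 and 0.09 at 1 h, and its difference of 1.70 did not pass (adjusted p = 0.219). Its 18 h arrays disagreed, with 1 below every 1 h array and 2 far above them. Without 18 h replicate 1 the Il6 difference was 2.88 and its adjusted p was 9.04e-06. Leaving out any other array gave an adjusted p of 0.376 to 0.454, so a call rests on dropping the array that disagreed. Il6st, the shared subunit gp130 itself, had a difference of 0.63 (adjusted p = 0.158), and both probes of Lif had smaller ones (0.37 and 0.13).

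Chemokines went both ways. Cxcl2, which attracts neutrophils, had log2 ratios of 1.48, 1.45 and 1.47 at 18 h and of 0.39, 0.63 and 0.55 at 1 h (difference 0.94, adjusted p = 0.00719). Ccl20, the ligand of Ccr6, had 0.73, 0.32 and 0.90 at 18 h and -0.21, -0.23 and -0.35 at 1 h. Ccl2, which attracts monocytes, was on the other side of 0, with -0.47, -0.46 and -0.73 at 18 h and 0.77, 0.32 and 0.39 at 1 h (difference -1.05, adjusted p = 0.00345). The second Ccl2 probe differed by -0.19 (adjusted p = 0.561). Ccr2, the receptor of Ccl2, had -1.73, -2.71 and -2.22 at 18 h and -0.36, -0.85 and -0.95 at 1 h. The Ccr2 ratio was therefore below 1 on all 6 arrays and lowest at 18 h (difference -1.50, adjusted p = 0.041). Of 26 measured genes of chemokines and their receptors, 2 were higher and 2 lower, and the median difference was -0.02. Each count is 7.69 percent, beside 1.26 percent higher and 1.55 percent lower of all named genes. The calls of Ccl20 and Ccr2 were lost with single arrays left out, where their adjusted p reached 0.0887 and 0.155.

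Ptgs2 and Ptges, which act one after the other in the making of prostaglandin E2, were higher at 18 h than at 1 h. Ptgs2, the inducible cyclooxygenase, had log2 ratios of 1.56, 1.45 and 2.51 at 18 h and of 0.60, 0.46 and 0.42 at 1 h on its called probe (difference 1.34, adjusted p = 0.0361). The second Ptgs2 probe differed by 1.11 without passing (adjusted p = 0.144), also with no overlap between times. Ptges, which makes prostaglandin E2 from the product of Ptgs2, was the 1 probe called higher that lay nearer 0 at 18 h than at 1 h. Its log2 ratios were -0.02, -0.28 and -0.26 at 18 h and -1.50, -2.01 and -2.03 at 1 h, so the ratio was nearer 1 at 18 h and clearly below 1 at 1 h. Its difference was 1.66 (adjusted p = 0.013), and 2.27 with arrays scaled to a common spread. The adjusted p of Ptges was 0.0644 at most with 1 array left out, and that of Ptgs2 was 0.129. Of 21 measured prostaglandin and hyaluronan genes 3 were higher (14.3 percent, beside 1.26 percent of all named genes) and none lower. The list's median difference was 0.25 beside 0.01 for all named genes. Pla2g5, a secreted phospholipase A2 outside this list, was lower, with log2 ratios of -1.25, -1.30 and -1.46 at 18 h and of 0.24, -0.10 and -0.38 at 1 h (difference -1.26, adjusted p = 0.0133, and up to 0.0602 with 1 array left out).

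**Figure D2:**
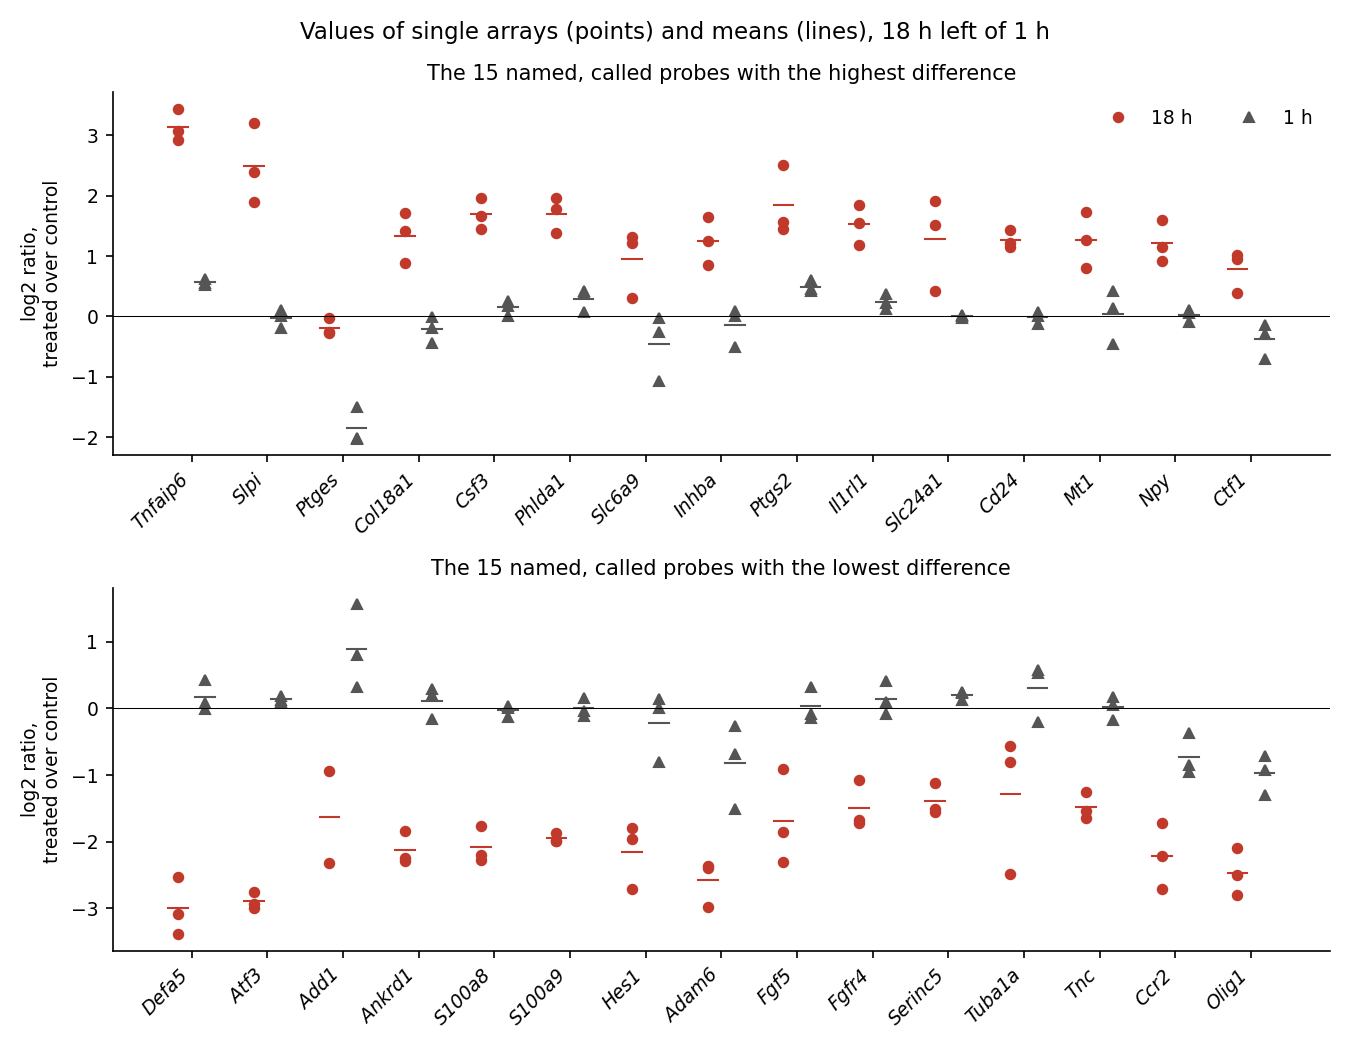
Log2 ratios of treated over control on single arrays (points, red circles for 18 h and grey triangles for 1 h) and means (short lines) of the 15 probes with the highest and the 15 with the lowest difference among called probes with a gene symbol, shown only where the times do not overlap. Larger differences that did not pass, such as those of Barhl1 and Il6, are left out, and Ptges is the one in the upper panel whose 18 h values are below 0.

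Secretory peptides of neurons were among the genes called higher. Vgf, the precursor of several peptides and a known target of CREB, had log2 ratios of 1.18, 0.74 and 1.15 at 18 h and of -0.07, -0.07 and -0.11 at 1 h (difference 1.11, adjusted p = 0.0107). Its second probe differed by 0.29 (adjusted p = 0.337). Npy, neuropeptide Y, which DRG neurons make after nerve injury, had 1.14, 1.60 and 0.92 at 18 h and 0.06, 0.10 and -0.09 at 1 h (difference 1.20, adjusted p = 0.0161). These were the 2 genes called of 33 measured neuropeptides and granins (6.06 percent higher, beside 1.26 percent of all named genes). None was lower, and the list's median was 0.03. The Npy call was lost without each of the 1 h arrays, with an adjusted p of at most 0.0754.

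The Vgf promoter is shown because it was the only promoter among the genes called higher to hold the full cAMP response element. It is RefSeq sequence of GRCr8, chr12:25276971-25277270 on the minus strand, 250 bases before to 50 after the start, and the capitals mark TGACGTCA, which begins at position -90.
Vgf: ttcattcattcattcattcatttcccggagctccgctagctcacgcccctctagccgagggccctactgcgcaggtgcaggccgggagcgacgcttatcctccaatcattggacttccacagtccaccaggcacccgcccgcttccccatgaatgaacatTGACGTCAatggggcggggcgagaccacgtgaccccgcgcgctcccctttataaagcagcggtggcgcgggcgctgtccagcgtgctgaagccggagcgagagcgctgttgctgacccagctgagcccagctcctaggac

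TGACGTCA, which reads the same on both strands, was found in 1 of 41 genes called higher with a promoter in the table (2.44%) and in 0 of 51 called lower. It stood in 2.14% of 3313 genes tested on the arrays and in 1.83% of all 33469 promoters of this length. The shorter core TGACG, which the full element contains, was found on either strand in 26.8% of the promoters of genes higher, 23.5% of those lower and 27.2% of the genes tested. These are counts of letters in a short window and not of sites in use.

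Genes that CREB or other immediate early signals are known to induce were followed as a list of 38. In it 2 were higher (Inhba and Ptgs2), 3 were lower (Atf3, Klf6 and Rgs2), and the median difference was 0.04. The counts are 5.26 and 7.89 percent, beside 1.26 and 1.55 percent of all named genes. Inhba, the beta A subunit of activin, had log2 ratios of 1.65, 0.85 and 1.24 at 18 h and of 0.01, 0.09 and -0.50 at 1 h (difference 1.38, adjusted p = 0.0161). Its mean was highest in between, at 2.20 at 6 h. Rgs2, a brake on G protein signalling, was lower at 18 h. It had -0.05, 0.26 and 0.16 at 18 h, against 0.74, 0.70 and 0.75 at 1 h, a difference of -0.61 (adjusted p = 0.0324). Rgs2 was thus above 0 on all 1 h arrays, averaged 0.81 and 0.83 at 3 and 6 h, and was close to 0 at 18 h. Pde4b, a phosphodiesterase that degrades cyclic AMP, had 1.29, 1.12 and 1.19 at 18 h and 0.20, 0.11 and 0.10 at 1 h, and missed the threshold (difference 1.06, adjusted p = 0.0507). Pde4a, of the same family, differed by -0.87 (adjusted p = 0.0455). Egr1 and Nr4a1, early genes of the same list, had differences of -0.29 and -0.48 that did not pass (adjusted p = 0.479 and 0.177). With 1 array left out the adjusted p reached 0.0785 for Inhba, 0.119 for Rgs2 and 0.178 for Pde4a.

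**Figure D3:**
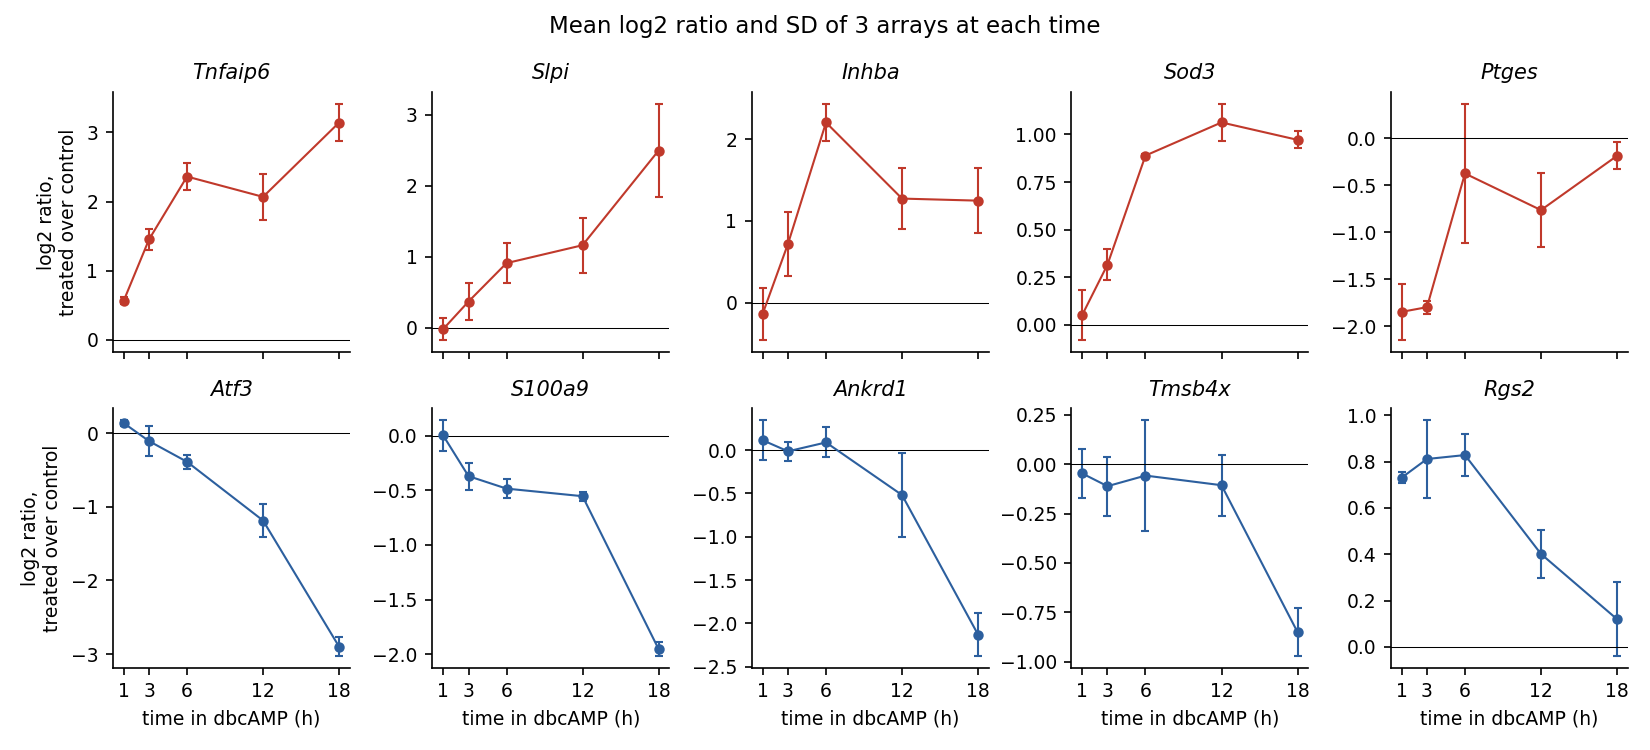
Mean log2 ratio of treated over control (vertical axis) and SD of 3 arrays against hours in dbcAMP for 5 genes called higher at 18 h than at 1 h (red) and 5 called lower (blue). Vertical scales differ between panels; Inhba peaked at 6 h with 2.20, Sod3 was at 0.89 at 6 h, and Tmsb4x was near 0 through 12 h.

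Some genes of defence against oxidants and metals were higher at 18 h. Mt1, the zinc-binding metallothionein 1, had 3 probes, which were all called higher, with differences of 1.23, 0.92 and 0.83 (adjusted p = 0.0256, 0.0139 and 0.0117). The probe with the least spread had log2 ratios of 0.73, 0.77 and 0.71 at 18 h and of -0.05, -0.01 and -0.21 at 1 h. Sod3, the extracellular superoxide dismutase, had 0.94, 1.02 and 0.96 at 18 h and 0.14, -0.10 and 0.11 at 1 h (difference 0.92, adjusted p = 0.00159). Sod3 had reached 0.89 at 6 h and 1.06 at 12 h, close to its 18 h mean of 0.97. Hmox1, heme oxygenase 1, had 1.71, 1.33 and 1.35 at 18 h and 0.60, 0.21 and 0.40 at 1 h (difference 1.06, adjusted p = 0.00753). These were 3 of 23 measured genes, none was lower, 19 of the 23 had a difference above 0, and the median was 0.28. Sod3 and Hmox1 stayed called whichever array was left out. The Mt1 probes had adjusted p of at most 0.118, 0.0771 and 0.0601 then, and with arrays scaled to a common spread no gene of the list was called.

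In sugar uptake and glycolysis a few genes were higher at 18 h. Slc2a1, the glucose transporter GLUT1, had log2 ratios of 1.14, 1.03 and 1.51 at 18 h and of 0.16, 0.12 and 0.08 at 1 h (difference 1.11, adjusted p = 0.00193). Tpi1, triose phosphate isomerase, had 0.69, 0.75 and 0.93 at 18 h and -0.06, -0.04 and 0.16 at 1 h (difference 0.77, adjusted p = 0.0108). Pfkl, liver phosphofructokinase, differed by 0.72 (adjusted p = 0.0224), and Slc16a3, a lactate exporter, by 0.93 (adjusted p = 0.0455). Of 33 measured genes that handle glucose and lactate 4 were higher, none was lower, 24 had a difference above 0, and the median was 0.24. Beside these 12.1 percent, 1.26 percent of all named genes were higher. With probes centred on the median of their plate number the list's median was 0.19. Leaving out 1 array at a time left 1 to 5 genes of this list called higher, with Slc2a1 kept and adjusted p up to 0.0534 for Tpi1, 0.0938 for Pfkl and 0.182 for Slc16a3. All 5 measured members of the Slc2a family, looked at together after their values were seen, had a difference above 0, from 0.17 to 1.11. Of them 1 was called, and all have plate numbers of 1 to 35, where the median difference of tested probes was 0.06. Slc2a4 had log2 ratios of 0.30, 2.01 and 0.55 at 18 h, so its arrays agreed poorly. Gapdh, printed on the array many times over, had differences of -0.11 to 0.48 over 53 probes with a median of 0.16 and none called. Of the 53, 47 were above 0, so the spots of this gene leaned upward and scattered around that.

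Solute carriers in general had 5 genes higher (3.73 percent) and none lower of 134. Of all named genes 1.26 percent were higher and 1.55 percent lower. The median of the list was 0.15, and 0.04 with probes centred on the median of their plate number. Beside Slc2a1 and Slc16a3 these were Slc6a9, a glycine transporter (difference 1.39, adjusted p = 0.0225), Slc24a1, a sodium, calcium and potassium exchanger (1.28, adjusted p = 0.043), and Slc31a1, a copper importer (1.02, adjusted p = 0.0386). Slc24a1 had log2 ratios of 1.91, 1.51 and 0.42 at 18 h against 0.01, 0.03 and -0.03 at 1 h, so its 18 h arrays agreed poorly. With 1 array left out 1 to 6 solute carriers were higher, with adjusted p up to 0.101 for Slc6a9, 0.136 for Slc24a1 and 0.158 for Slc31a1, and with probes centred on the median of their plate number 1 was. Between 0 and 3 were lower with 1 array left out, the 3 without 18 h replicate 3. Only 6 of the list's 136 probes have plate numbers of 36 or above, where differences ran lower, as described below.

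Proteases and matrix proteins were called in both directions. Of 12 measured cathepsins and legumain, lysosomal proteases looked at together after their values were seen, 3 were higher, namely Ctsl (0.86), Lgmn (0.77) and Ctsb (0.64). Their adjusted p reached 0.123, 0.0938 and 0.111 with 1 array left out. The largest difference of the 12 was in the other direction and did not pass, in Ctsq, with log2 ratios of -1.58, -2.38 and -1.08 at 18 h and of -0.52, -0.70 and -0.81 at 1 h (adjusted p = 0.0722). Plat, tissue plasminogen activator, had log2 ratios of 1.04, 0.91 and 1.17 at 18 h and of 0.19, 0.11 and 0.22 at 1 h (difference 0.86, adjusted p = 0.00753). In the list of 55 genes of matrix and metalloproteases, Plat, Mmp12 and Col18a1 were higher and Tnc and Ccn1 lower, with a median of 0.03. That is 5.45 percent higher and 3.64 percent lower, beside 1.26 and 1.55 percent of all named genes. Col18a1, the collagen that yields endostatin, had 1.42, 1.71 and 0.88 at 18 h and -0.44, -0.01 and -0.19 at 1 h (difference 1.55, adjusted p = 0.00185). Tnc, tenascin-C, a matrix protein of growing and injured tissue, had -1.64, -1.26 and -1.54 at 18 h and 0.06, 0.18 and -0.17 at 1 h (difference -1.50, adjusted p = 0.00228). Ccn1, a matrix protein of the CCN family, had -0.98, -1.61 and -0.82 at 18 h and 0.22, 0.13 and 0.17 at 1 h (difference -1.31, adjusted p = 0.00349). Mmp12, macrophage elastase, differed by 1.03 and lost its call without any 1 of the 6 arrays (adjusted p up to 0.139), while the other 4 kept theirs.

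**Figure D4:**
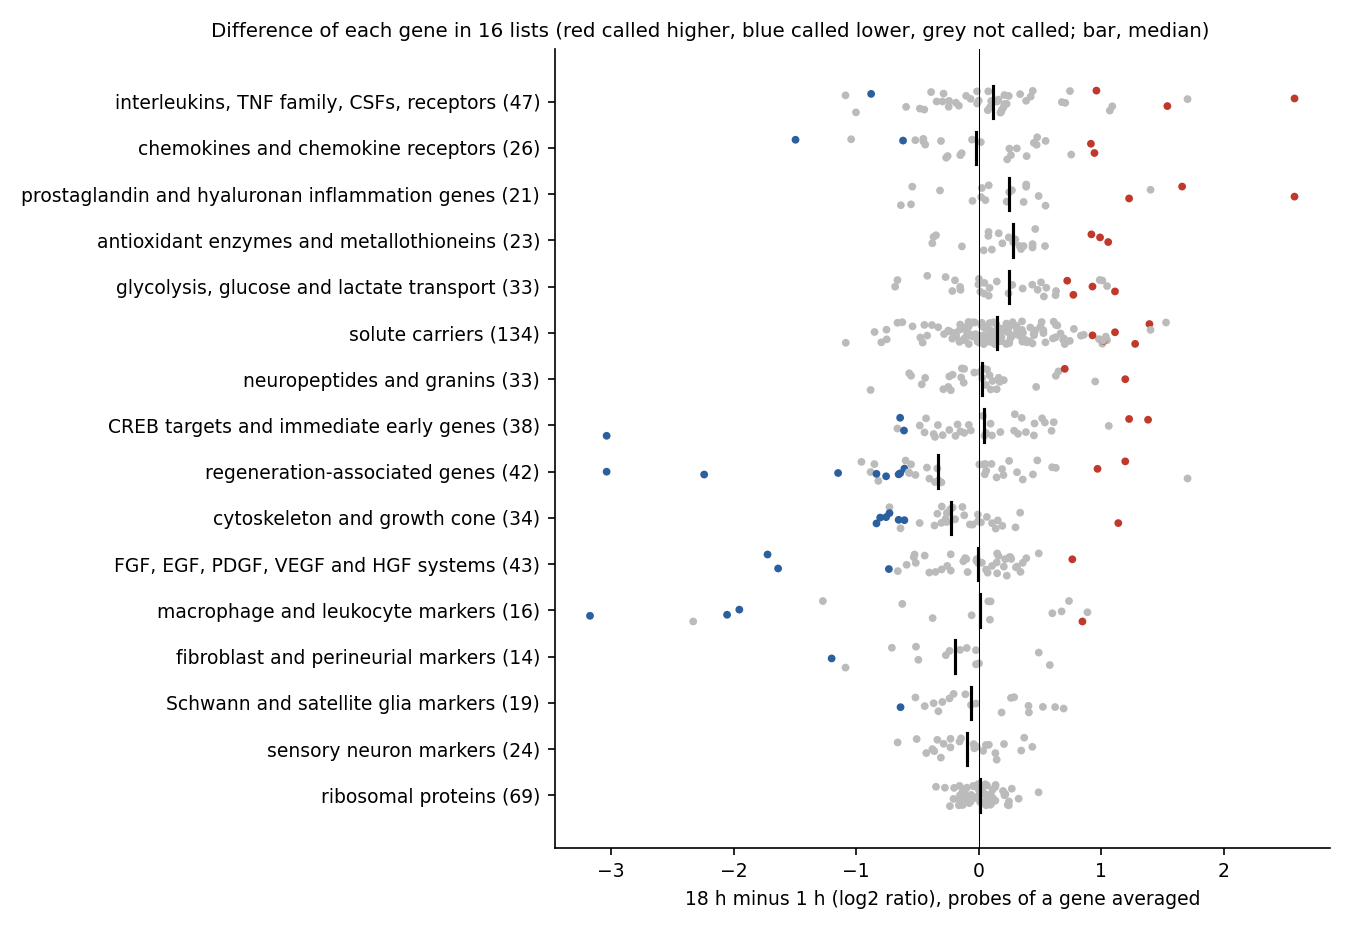
Difference of 18 h minus 1 h on the log2 scale (horizontal axis) for each gene of 16 lists (rows, with the number of genes measured), probes of a gene averaged. Red and blue points have a probe called higher or lower, grey points have none, and the black bar is the list's median, for example -0.33 for regeneration-associated genes and 0.01 for ribosomal proteins.

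The deepest falls were in Defa5 and Atf3. Atf3, a stress-induced transcription factor that is switched on in DRG neurons after axotomy, had log2 ratios of -3.00, -2.94 and -2.76 at 18 h, against 0.10, 0.13 and 0.18 at 1 h. At 18 h the Atf3 ratio was 0.122 of that at 1 h (log2 difference -3.04 ± 0.15 SE, adjusted p = 1.75e-07). It went down step by step, with means of -0.11, -0.39 and -1.19 at 3, 6 and 12 h. Ankrd1, a stress-induced cofactor of transcription that also rises after nerve injury, had -2.30, -1.84 and -2.24 at 18 h and 0.20, -0.15 and 0.29 at 1 h (difference -2.24, adjusted p = 0.000107). The mean of Ankrd1 was still 0.09 at 6 h and -0.52 at 12 h. Gadd45a, a growth arrest gene, differed by -1.15 (adjusted p = 0.0155), and Klf6, a zinc finger factor, by -0.64 (adjusted p = 0.0284). With 1 array left out the adjusted p of Gadd45a and Klf6 reached 0.071 and 0.122, while Atf3 and Ankrd1 kept their calls.

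These 4 belong to the list of regeneration-associated genes, which injured neurons are known to raise. Of 42 measured, 8 were lower and 2 higher (19.0 and 4.76 percent, beside 1.55 and 1.26 percent of all named genes). The list's median was -0.33 beside 0.01 for all named genes, and -0.13 with arrays scaled to a common spread. The other lower members were Gap43, Tuba1a, Tubb2b and Stmn4, and the higher ones were Npy and Arg1. Gap43, a growth cone protein, had log2 ratios of -0.59, -0.68 and -0.50 at 18 h and of 0.00, 0.07 and -0.03 at 1 h (difference -0.61, adjusted p = 0.0236). Arg1, which makes the polyamine precursor ornithine, had 1.51, 0.58 and 1.28 at 18 h and 0.46, 0.23 and -0.23 at 1 h (difference 0.97, adjusted p = 0.0455). Sprr1a and Gal, members known for strong induction by injury, had differences of -0.82 and -0.57 that did not pass (adjusted p = 0.351 and 0.148). Leaving out 1 array left 2 to 7 members lower and 0 to 3 higher, with adjusted p up to 0.101 for Gap43 and 0.183 for Arg1, and 2 were lower with arrays scaled to a common spread.

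The list of cytoskeleton and growth cone genes shares Gap43, Tuba1a, Tubb2b and Stmn4 with that list. Of 34 measured genes 6 were lower, 1 was higher and the median was -0.22, with 9 differences above 0. Beside these 17.6 and 2.94 percent, 1.55 percent of all named genes were lower and 1.26 percent higher. The list has 15 of its 37 probes on plates 36 to 53, where differences ran lower, and its median was -0.10 with probes centred on plate medians. Tmsb4x and Tmsb10, thymosins that bind actin monomers, had differences of -0.80 and -0.73 (adjusted p = 0.0211 each). Tmsb4x had log2 ratios of -0.72, -0.87 and -0.96 at 18 h and of -0.19, -0.01 and 0.06 at 1 h, with a mean of -0.11 as late as 12 h. Tubb2b, a neuronal beta tubulin, differed by -0.76 (adjusted p = 0.0412), and Stmn4, a stathmin, by -0.65 (adjusted p = 0.0316). Tuba1a had -2.48, -0.81 and -0.57 at 18 h against -0.20, 0.53 and 0.58 at 1 h on its called probe, while its second probe differed by -0.08 (adjusted p = 0.898), so the probes disagree. Tubg1, the gamma tubulin of centrosomes, was the 1 member called higher (1.14, adjusted p = 0.0185). With 1 array left out the adjusted p reached 0.156 for Tuba1a, 0.142 for Tubb2b, 0.129 for Stmn4, 0.0951 for Tmsb4x, 0.0938 for Tmsb10 and 0.0821 for Tubg1. No member stayed called whichever array was left out: 0 to 3 were lower with 1 array left out, and 0 were lower with arrays scaled to a common spread or with the 6 arrays alone.

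The differences of S100a8, S100a9 and Defa5 were among the lowest. S100a8 and S100a9, which pair to form calprotectin in neutrophils and monocytes, fell together. S100a8 had log2 ratios of -2.21, -2.28 and -1.77 at 18 h and of 0.04, -0.14 and 0.00 at 1 h (difference -2.05, adjusted p = 7.19e-05). S100a9 had -1.99, -1.88 and -1.99 at 18 h and 0.16, -0.12 and -0.04 at 1 h (difference -1.95, adjusted p = 2.68e-06). Defa5, an alpha-defensin by its symbol, had -2.53, -3.40 and -3.08 at 18 h against -0.01, 0.09 and 0.42 at 1 h (difference -3.17 ± 0.35 SE, adjusted p = 0.000261). Np4, a neutrophil defensin, differed by -1.38 (adjusted p = 0.00324). These were 2 of 5 measured defensins, looked at after their values were seen, and Defb1, Defb4 and Defa24 differed by -1.25, -0.17 and 0.13 without passing (adjusted p = 0.217, 0.860 and 0.848). Defensin genes are near copies of each other, so which of them a probe measured is uncertain.

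The whole list of macrophage and leukocyte markers was divided. Of 16 measured genes 3 were lower (Defa5, S100a8 and S100a9), 1 was higher (Gzmb) and the median was 0.01. The counts are 18.8 and 6.25 percent, beside 1.55 and 1.26 percent of all named genes. The list was written with earlier results of these data known. Defa5 and Gzmb are not among the macrophage and leukocyte markers that the design named, so their calls do not bear on those markers. The macrophage markers Aif1, Csf1r and Itgam had small differences of 0.10, 0.08 and -0.06, none of which passed. They do not stand for the whole list, whose differences ran from -3.17 to 0.89 with the probes of a gene averaged. Gzmb, granzyme B, had 3 probes with differences of 0.83, 1.89 and -0.18, of which the first was called (adjusted p = 0.0455, and up to 0.18 with 1 array left out). Over the list's genes the median log2 ratio was -0.31, -0.24 and 0.18 on the 18 h arrays and 0.04, 0.01 and 0.02 on the 1 h arrays. The part of myeloid cells in the falls of S100a8 and S100a9 was not tested.

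Among 8 measured genes of the S100 family, looked at after their values were seen, S100a4 was the third that fell. Both of its probes were called, at -1.21 and -1.19 (adjusted p = 0.00737 and 0.00157). The first had log2 ratios of -1.11, -1.35 and -1.20 at 18 h and of 0.04, -0.05 and -0.03 at 1 h. S100a4 is also a marker of fibroblasts, and it was the 1 gene called among 14 fibroblast and perineurial markers. That is 7.14 percent lower, beside 1.55 percent of all named genes. These markers had a median of -0.20 and 3 differences above 0. S100b, S100a10, S100a6, S100g and S100a1 had differences of -0.25 to 0.20 and none was called.

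Growth factors were called in both directions. Fgf5 had log2 ratios of -1.86, -0.91 and -2.30 at 18 h and of 0.32, -0.14 and -0.08 at 1 h (difference -1.72, adjusted p = 0.0163). Fgfr4, a receptor of the same family, had -1.68, -1.08 and -1.72 at 18 h and 0.10, 0.42 and -0.09 at 1 h (difference -1.64, adjusted p = 0.0187). Pdgfa, a platelet-derived growth factor, differed by -0.73 and Pgf, placental growth factor, by 0.76 (adjusted p = 0.0185 and 0.0136). The list of FGF, EGF, PDGF, VEGF and HGF systems had 43 measured genes and a median of -0.01. In it 3 were lower and 1 higher (6.98 and 2.33 percent, beside 1.55 and 1.26 percent of all named genes). Without 1 h replicate 1 or 2 this became 0 lower and 1 higher, and without 1 h replicate 3 or 18 h replicate 1 none was called. Gdnf, a survival factor of sensory and motor neurons, had -1.32, -1.13 and -1.22 at 18 h and -0.09, -0.00 and 0.12 at 1 h (difference -1.23, adjusted p = 0.0122). It was the 1 gene called of 16 neurotrophins, GDNF family ligands and receptors (6.25 percent lower, beside 1.55 percent of all named genes). Without 1 h replicate 3 the adjusted p of Gdnf was 0.0601, and with 1 array left out it reached 0.0702 for Fgf5, 0.09 for Fgfr4, 0.0757 for Pdgfa and 0.0742 for Pgf.

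Further genes with large differences belong to none of these groups. Phlda1, an early response gene of growth factor signalling, had log2 ratios of 1.38, 1.77 and 1.96 at 18 h and of 0.07, 0.39 and 0.43 at 1 h (difference 1.41, adjusted p = 0.000657). Its mean was 0.88 at 3 h and 1.24 at 6 h, so most of its difference was present early. Cd24, a small surface glycoprotein of immature neurons and leukocytes, had 1.21, 1.14 and 1.43 at 18 h and 0.08, 0.00 and -0.12 at 1 h (difference 1.28, adjusted p = 0.000391). Its mean was -0.01 at 6 h and 0.52 at 12 h, later than that of Phlda1. Serinc5, a membrane protein, had -1.51, -1.55 and -1.12 at 18 h and 0.12, 0.24 and 0.25 at 1 h (difference -1.60, adjusted p = 7.27e-05). These 3 kept their calls whichever array was left out. Of 67 potassium channel genes 1 was higher, Kcnk10 (0.90, adjusted p = 0.043), and 1 lower, Kcnn1 (-0.67, adjusted p = 0.0283), close to the 1.26 and 1.55 percent of all named genes. The adjusted p reached 0.145 for Kcnk10 and 0.104 for Kcnn1 with 1 array left out, and with plate centring none was higher.

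Calls among markers of the main cell types are set beside the shares of all named genes, 1.26 percent higher and 1.55 percent lower. At those shares lists of 13 to 69 genes would hold few calls or none, so counts of 0 say little. Macrophage, leukocyte and fibroblast markers are described above. None of 24 measured sensory neuron markers was called, with a median of -0.09, and Uchl1, an abundant neuronal enzyme, had the next to lowest probe at -0.66 (adjusted p = 0.113). Of 19 Schwann and satellite glia markers, Cnp, a myelin enzyme, was lower (-0.64, adjusted p = 0.0211, and up to 0.0911 with 1 array left out), and the median was -0.06. None of 15 endothelial and mural markers and none of 69 ribosomal proteins was called, with medians of 0.06 and 0.01. None of 30 respiratory chain genes was called either, with a median of -0.16. Likewise none was called among heat shock proteins (30 genes), cholesterol synthesis (13), axon guidance (29), or sodium, calcium and TRP channels (39).

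Probes with high plate numbers ran lower at 18 h. Probe identifiers begin with a number of 1 to 53, read here as a plate of origin with 96 probes each. Plates 36 to 53 held 1662 tested probes with a median difference of -0.15, 6 called higher and 38 lower. Plates 1 to 35 held 3333 with a median of 0.06, 53 called higher and 40 lower. Plate 43 alone held 13 of the probes called lower, with a median difference of -0.35 over its 96 probes, and the median over these probes was a log2 ratio of -0.51 on the 18 h arrays, against -0.13 on the 1 h arrays. Hes1, a target of Notch, Olig1, a transcription factor of glia, Grik1, a kainate receptor subunit, Nes, an intermediate filament of progenitors, and Stmn4 are on plate 43. Hes1 had log2 ratios of -1.96, -1.79 and -2.72 at 18 h and of -0.81, 0.00 and 0.14 at 1 h (difference -1.94, adjusted p = 0.0455). Grik1 had -1.89, -1.50 and -1.42 at 18 h and -0.53, -0.28 and -0.06 at 1 h (difference -1.31, adjusted p = 0.0107). With 1 array left out the adjusted p reached 0.164 for Hes1, which lost its call without any 1 of the 6 arrays, 0.09 for Olig1, 0.0601 for Grik1 and 0.0771 for Nes. With probes centred on the median of their plate, 105 were called (49 higher, 56 lower), and these 5 genes no longer passed, with adjusted p of 0.0564, 0.087, 0.132, 0.197 and 0.423. Atf3, Ankrd1, S100a8, S100a9, Tnc, Tnfaip6 and Slpi kept their calls there. Plates may hold genes of like function, and the part of plate in these calls was not tested.

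**Figure D5:**
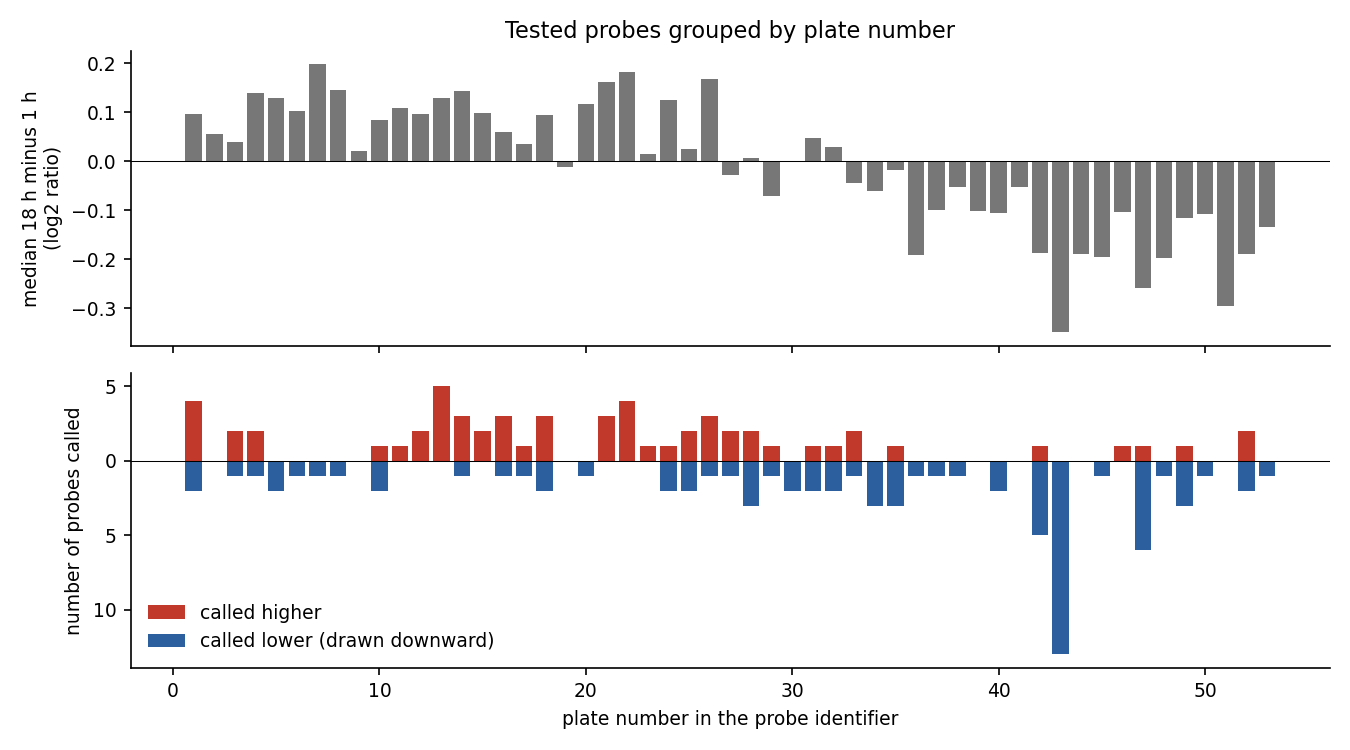
Median difference of 18 h minus 1 h on the log2 scale of the tested probes of each plate number (upper panel) and the number of probes called higher (red, upward) and lower (blue, downward) on each plate (lower panel). Medians are mostly above 0 through plate 26 and below 0 from plate 33 on, and plate 43 has the lowest median, -0.35, and 13 probes called lower.

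Probes whose ratio was off balance throughout were not called. On 25 tested probes the log2 ratio was beyond 1 in the same direction on all 6 arrays, 4 above and 21 below. None of the 25 was called. Of all probes tested, 1.18 percent were called higher and 1.56 percent lower, so 25 probes would hold few calls or none at those shares. Rps6kb1, a kinase of ribosomal protein S6, had log2 ratios of 1.17, 1.14 and 1.06 at 18 h and of 1.07, 1.17 and 1.27 at 1 h, a difference of -0.05. E2f1, a cell cycle transcription factor, had -1.22, -1.41 and -1.14 at 18 h and -1.31, -1.09 and -1.25 at 1 h. Inpp4b, a phosphatase of phosphoinositides, averaged -2.11 at 18 h and -2.08 at 1 h. These 3 were about as far from 0 after 1 h as after 18 h. Others of the 25 were not. Ntf3 averaged -2.43 at 18 h and -1.24 at 1 h, and Ccnd1 -1.45 at 18 h and -2.44 at 1 h. Barhl1, a homeobox gene, had the highest ratios of all, 8.33, 6.84 and 7.31 at 18 h and 5.26, 3.29 and 6.03 at 1 h, and its difference of 2.63 did not pass (adjusted p = 0.230).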

How the data were processed

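The 15 two-colour arrays of spotted oligonucleotides, 3 each at 1, 3, 6, 12 and 18 h, gave 5088 probes. Per the labels and the authors' methods, Cy5 marked treated and Cy3 marked control RNA. The authors deposited a linear ratio, treated over control, for every probe on every array. How they corrected background, normalized and filtered is not given in the sources used here. Scanner intensities were not used here. Median deposited ratios of the 6 arrays lay between 1.00 and 1.01, and 28 to 94 ratios were missing on an array. No count or spot depth comes with ratios, so the number of arrays limits the precision.

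The log2 of the deposited ratios was taken without further centring. limma 3.58.1 in R 4.3.3 fitted 1 mean per time to all 15 arrays (lmFit, eBayes), and the contrast was 18 h minus 1 h, two-sided. Probes with a ratio on at least 2 of 3 arrays at both times were tested (4995). The p-values were adjusted by Benjamini-Hochberg over all of them, and a call is an adjusted p under 0.05. Gene symbols come from GEO's annotation of the platform and may be outdated. Of 5088 probes 4423 had 1 symbol, 2 several and 663 none, and 4375 gene identifiers matched RefSeq genes of GRCr8. Probes of a gene were tested singly and averaged for gene lists. Lists are described by counts and medians, without a test. Of 187 tested genes with several probes 12 had a call, and for 2 of the 12 all probes were called. The fit was tested on simulated data, in which it found 15.7, 57.1 and 91.1 percent of changes of 1.5, 2 and 4 times. Of its calls there 4.4 percent were false. Each simulated probe had the same spread on all arrays, unlike the real arrays, which were wider at 18 h than at 1 h.

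The rule for named genes took the 15 highest and 15 lowest called probes that did not overlap, all genes the paper names for dbcAMP, and up to 6 called members of each of 42 lists (with none called, the 2 of smallest p). It also took the 5 highest and 5 lowest probes off balance on all 6 arrays, and all probes of a gene with a called extreme. Np4, Pla2g5, Ctsl, Ctsb, Lgmn and the smaller members of the families described were chosen after their values were seen. The genes described, the lists and the rule were chosen with earlier results of these data known. Alternatives were array, plate and quantile scaling, subsets of arrays and plates, array weights, a robust prior, a replicate block, other filters, and the methods' t-test (Student). Figures were drawn with matplotlib 3.10.9.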

Additional observations from a re-analysis of the deposited data

Results flagged for a closer look

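The test of 18 h minus 1 h is a test of a difference between the effects of dbcAMP at 2 times, so its 137 calls are listed here as a whole. On 37 of them all 18 h arrays lay on one side of a ratio of 1 and all 1 h arrays on the other. Of these, 20 are among the genes described here. No array carried the dyes the other way round, so the side of 1 at a single time may carry dye bias. It does not by itself show that treated cultures were above or below control. How many of all tested probes had such opposite sides was not counted, so the 37 cannot be set against a background share.

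Of the 20, 11 had a ratio above 1 at 18 h and below 1 at 1 h. Col18a1 differed by 1.55, Slc6a9 by 1.39, Ctf1 by 1.17, Vgf by 1.11 and Slc31a1 by 1.02 on the log2 scale. Ccl20 differed by 0.92, the third Mt1 probe by 0.83, Gna15, a G protein alpha subunit, by 0.81, Pgf by 0.76, Pfkl by 0.72 and Ctsb by 0.64. The opposite sides were not seen on the other probes of Mt1 and Vgf. At 1 h those of Mt1 averaged 0.04 and 0.19, and the second Vgf probe had 0.07, -0.01 and -0.10. The call of Gna15 was lost with all but 1 of the arrays left out in turn (adjusted p up to 0.0912) and with plate centring (0.126).

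The other 9 had a ratio below 1 at 18 h and above 1 at 1 h. Atf3 differed by -3.04, Serinc5, a membrane protein, by -1.60, Ccn1 by -1.31 and Ccl2 by -1.05. Add1, an adducin of the membrane skeleton, differed by -2.53 with a ratio on only 2 of the 18 h arrays, and with 1 array left out its adjusted p reached 0.0773. Tubb2b differed by -0.76, Pdgfa by -0.73, Kcnn1, a calcium-activated potassium channel, by -0.67, and Klf6 by -0.64. For many of them the 1 h values were close to 0: Atf3 averaged -2.90 at 18 h and 0.14 at 1 h, and Vgf 1.03 at 18 h and -0.09 at 1 h. Klf6 was nearer 0 at 18 h (mean -0.24) than at 1 h (mean 0.40). The called Ccl2 probe averaged -0.56 at 18 h and 0.49 at 1 h, and thus stood away from 0 at both times. The second Ccl2 probe did not, with means of -0.18 at 18 h and 0.01 at 1 h.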

How the results depend on the processing

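No called difference of a named probe changed sign under any alternative. Of 137 called probes (59 higher, 78 lower), 12 (3, 9) were called with arrays scaled to a common spread and 14 (3, 11) after quantile normalization, which remove the wider spread of the 18 h arrays. Tests of plates 36 to 53 alone called 41 (6, 35), and those of plates 1 to 35 alone 104 (59, 45). With the 6 arrays alone 48 (18, 30) were called, and 24 (9, 15) when these were also centred on plate medians, an alternative added after the data were seen. The methods' t-test called 795 probes unadjusted (361, 434) and 38 (15, 23) after Benjamini-Hochberg. At an adjusted p under 0.01 there were 31 (14, 17), and 72 (26, 46) of the called probes differed by at least 1. Leaving out 1 array gave 42 to 164 calls, 19 to 76 higher and 23 to 88 lower. The fewest came without each of the 1 h arrays. Centring on array medians, plate centring, array weights, the robust prior, other limits on missing values, averaging a gene's probes and leaving out plate 43 gave 105 to 158 calls. Leaving out plate 43, filtering missing values before the fit and the counts per gene list under other settings were also added after the data were seen. Of 73 named probes called, 24 kept the call whichever 1 array was left out, 51 with plate centring, 26 with the 6 arrays alone and 11 with arrays scaled. Deviations of arrays with the same replicate number at 18 h and 1 h correlated at 0.01, 0.01 and -0.03, so the numbers were not taken to pair arrays. With the replicate block 102 probes were called over 15 arrays and 1 (0 higher, 1 lower) over the 6. Where no reason is given, the cause was not tested. Having 3 arrays a time and ratios without intensities limit what can be seen, and dim spots could not be told from bright ones.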
